A study of Mus musculus with 13 samples.

Results

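The H3K27ac regions that mouse embryonic fibroblasts (MEFs) lost or gained in the first 5 days of reprogramming are described here. Peaks of the day 5 library were set against peaks of the MEF library. A MEF peak was called lost where no day 5 peak overlapped it by at least 1 bp, and a day 5 peak was called new where no MEF peak overlapped it. By this rule 16867 of 26591 MEF peaks were lost and 5921 of 15645 day 5 peaks were new, among 145993 H3K27ac peaks in the 8 libraries of the series. Peaks were also counted in each gene body plus 20 kb on both sides. Of 21887 protein-coding genes, 1720 had at least 1 peak more at day 5 and 7270 had at least 1 peak fewer.

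The day 5 cells were C57BL/6J-OG2 MEFs carrying OCT4, SOX2, KLF4 and c-MYC (OSKM) together with a FLAG control plasmid. A second day 5 library came from the same kind of cells given HDAC3-YF, a mutant form of the histone deacetylase HDAC3, in place of FLAG. The MEFs were of the same strain and untreated, and embryonic stem cells (ESCs) of strain C57BL/6J were also profiled. OG2 cells carry a reporter driven by Pou5f1 regulatory sequence, so a transgenic copy of that sequence is present in MEFs and OSKM cultures alike. The labels describe the plasmids as transfected, while the protocol describes viral transduction of MEFs and a change to serum-based or serum-replacement stem cell medium. The day 5 cultures therefore differed from MEFs in medium as well as in the introduced genes, and these differences cannot be told apart. Day 5 cultures were mixed: the labels call the cells presumed intermediates and give no sort. Each group is 1 library, so no difference between day 5 and MEFs could be tested and none carries a p-value. Intervals given below are 95% Wilson intervals, or Newcombe intervals for differences, and cover counting error over peaks only.

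H3K27ac is an acetyl mark on the tail of histone H3 that is deposited by the acetyltransferases p300 and CBP and removed by histone deacetylases such as HDAC3 in NCoR and SMRT complexes. It marks active promoters and active enhancers, and the enhancer portion is the more cell type specific. In fibroblasts such enhancers are occupied by AP-1, TEAD, RUNX and C/EBP factors, and reprogramming factors are known to engage and shut down many somatic enhancers well before the pluripotency network is switched on.

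The peak lists have to be read with their construction in mind. All intervals are 200 bp wide, and neighbouring intervals of a list almost never lie within 1 kb, since joining intervals within 1 kb removed 121 of the day 5 peaks and 85 of the MEF peaks. The day 5 list was shorter, with 15645 peaks against 26591 for MEFs, and 16944 peaks with HDAC3-YF at day 5. The deposited score, whose scale is not stated, ended at 200, and 11.9% of day 5 peaks but 25.9% of MEF peaks were at that ceiling. The median score was 26.4 at day 5 and 37.7 in MEFs. Read depth is unknown, so a shorter list may hold fewer weak peaks for that reason alone, which was not tested. Results are therefore also given for lists of equal length, in which only the 15645 MEF peaks of highest score were used. Where the ESC or HDAC3-YF list entered such a result, it was cut to the same number of peaks. Fibroblast markers were checked first: 10 of 20 fibroblast identity genes had a day 5 peak in their window, against 19 of 20 in MEFs. Over all 21887 genes, 8.50% had a MEF peak and none at day 5, and 1.40% the reverse. In the MEF list of equal length the markers Dcn, Mgp, Dpt and Nt5e no longer had a peak.

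Promoter sequences are shown for 5 genes whose start carried a peak in only 1 of the 2 libraries, to give examples of lost and new start peaks. Most changed peaks lay elsewhere, as 21.2% of new day 5 peaks and 16.2% of lost MEF peaks were within 1 kb of a start. They come from the RefSeq promoter table for GRCm38.p6 (the same assembly as mm10) and run from 250 bases before to 50 bases after the start. The first 3 belong to genes with a MEF peak and no day 5 peak within 1 kb of the start: Tnc encodes the matrix protein tenascin C, Postn the matrix protein periostin and Grem1 the BMP antagonist gremlin 1. The other 2 had a day 5 peak there and no MEF peak: Dsp encodes desmoplakin of epithelial desmosomes and Tek an angiopoietin receptor. Capitals mark matches to the KLF/SP letters CCGCCC, its complement GGGCGG, and the OCT4 octamer ATGCAAAT.
Tnc promoter, chr4:64046966-64047265, minus strand: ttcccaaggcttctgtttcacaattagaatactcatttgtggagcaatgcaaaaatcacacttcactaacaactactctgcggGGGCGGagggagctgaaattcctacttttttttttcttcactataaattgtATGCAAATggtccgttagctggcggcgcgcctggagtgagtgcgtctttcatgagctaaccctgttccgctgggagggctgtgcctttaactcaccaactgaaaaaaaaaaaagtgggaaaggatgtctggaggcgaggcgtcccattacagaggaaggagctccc
Postn promoter, chr3:54359017-54359316, plus strand: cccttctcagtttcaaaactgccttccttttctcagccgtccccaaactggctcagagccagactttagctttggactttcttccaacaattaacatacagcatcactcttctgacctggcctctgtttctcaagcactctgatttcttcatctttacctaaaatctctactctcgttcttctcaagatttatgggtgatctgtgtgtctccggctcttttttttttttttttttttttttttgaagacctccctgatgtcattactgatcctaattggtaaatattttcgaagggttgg
Grem1 promoter, chr2:113758599-113758898, minus strand: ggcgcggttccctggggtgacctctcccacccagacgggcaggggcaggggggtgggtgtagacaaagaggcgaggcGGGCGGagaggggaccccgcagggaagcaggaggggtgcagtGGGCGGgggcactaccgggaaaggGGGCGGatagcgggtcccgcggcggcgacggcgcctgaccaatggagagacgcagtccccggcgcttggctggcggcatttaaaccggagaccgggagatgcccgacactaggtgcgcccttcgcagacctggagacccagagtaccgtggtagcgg
Dsp promoter, chr13:38151044-38151343, plus strand: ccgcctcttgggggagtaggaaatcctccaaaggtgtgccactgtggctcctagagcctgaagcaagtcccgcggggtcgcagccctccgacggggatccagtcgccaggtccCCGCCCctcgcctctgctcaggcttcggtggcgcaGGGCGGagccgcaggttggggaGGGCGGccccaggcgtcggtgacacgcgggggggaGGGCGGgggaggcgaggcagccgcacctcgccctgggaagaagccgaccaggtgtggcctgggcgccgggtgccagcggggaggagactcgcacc
Tek promoter, chr4:94739039-94739338, plus strand: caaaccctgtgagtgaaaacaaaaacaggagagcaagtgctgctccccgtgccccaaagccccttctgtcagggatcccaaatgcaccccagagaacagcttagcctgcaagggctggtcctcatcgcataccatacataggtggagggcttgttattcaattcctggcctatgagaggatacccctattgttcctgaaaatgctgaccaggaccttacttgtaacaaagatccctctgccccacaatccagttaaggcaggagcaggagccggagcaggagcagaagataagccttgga

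The Tnc start had a MEF peak of score 200 centred 463 bases into the gene and no peak at day 5. The octamer in the Tnc promoter begins at position -116. The Postn start had a MEF peak of score 26.9 centred at -283, and the Grem1 start one of score 167 centred at 379. In the other direction, the Dsp start had a day 5 peak of score 74.4 centred at 720, the Tek start one of score 29.8 centred at 146, and neither had a MEF peak within 1 kb. ESCs had a peak of score 112 at the Dsp start and of score 11.4 at the Tek start, and none at the Tnc, Postn or Grem1 starts.

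Most MEF peaks had no counterpart at day 5. In these mixed cultures, fewer cells carrying the mark and less mark per cell cannot be told apart. Of MEF peaks 63.4% (62.9 to 64.0%) had no overlapping day 5 peak, and 55.9% had no day 5 peak centre within 1 kb. The lost peaks were mostly isolated: 11.8% of them had a day 5 peak within 1 kb, while for 56.2% the nearest day 5 peak was more than 20 kb away. Day 5 peaks were new in 37.8% of cases (37.1 to 38.6%), and 24.8%, or 3880 peaks, had no MEF peak within 1 kb. Of new peaks 34.5%, or 2041, had a MEF peak within 1 kb, while 1995 lost peaks had a day 5 peak that near. These counts are similar, so the higher share reflects the smaller set, 5921 new against 16867 lost peaks. It does not show that new peaks lay nearer to old ones, and it was not compared for lists of equal length. For lists of equal length the lost and the new share are equal by construction and came to 42.9%.

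Loss was concentrated away from gene starts. Among MEF peaks over 1 kb from a start 87.5% were lost, against 26.1% of those within 1 kb of a start, a difference of 61.4 points (60.4 to 62.3). The loss climbed with distance, being 23.8% for MEF peaks within 500 bp of a start and 91.9% for those more than 50 kb away. For lists of equal length the distal and start-site shares were 76.7% and 19.0%. New day 5 peaks showed the same arrangement, with 69.7% of distal and 14.0% of start-site day 5 peaks new, and shares from 12.4% within 500 bp to 76.9% beyond 50 kb. In composition, 57.3% of day 5 peaks and 39.2% of MEF peaks lay within 1 kb of a start. That contrast was not seen for lists of equal length, where the shares were 57.3% at day 5 and 58.5% in MEFs.

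**Figure D1:**
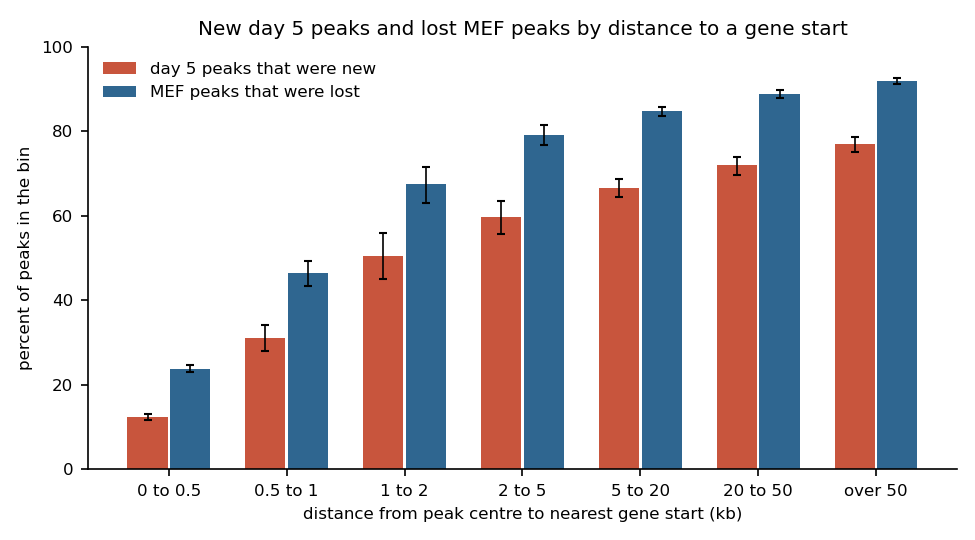
Percent of day 5 peaks that were new and of MEF peaks that were lost (y axis) in 7 classes of distance from the peak centre to the nearest gene start in kb (x axis), with 95% Wilson intervals from 1 library each. Both shares are lowest within 0.5 kb, at 12.4% for day 5 and 23.8% for MEFs, and highest beyond 50 kb, at 76.9% and 91.9%.

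Weak peaks were lost more often than strong ones, and distal peaks were lost more often than start-site peaks in every class of score. In 5 equal classes of MEF score from lowest to highest, 95.1%, 90.9%, 78.2%, 38.8% and 14.2% of peaks were lost. Among MEF peaks at the ceiling score, 41.2% of the 1015 distal peaks were lost, against 9.28% of the 5872 at gene starts, a difference of 31.9 points (28.8 to 35.0). For new day 5 peaks the shares over the 5 classes of score were 73.5%, 56.6%, 35.8%, 16.8% and 6.65%. New peaks had a median score of 11.6, against 53.2 for the day 5 peaks that MEFs shared. Lost MEF peaks had a median of 17.4, while kept MEF peaks had a median of 200. At the ceiling score of 200, 285 MEF peaks had no day 5 peak within 1 kb, and their order cannot be resolved. Examples lay in Lox, encoding the collagen cross-linking enzyme lysyl oxidase, in Lsp1, at the start of Klf4, in Aebp1 and in Stx3. All of these positions had a peak within 1 kb in some other OSKM library. Lsp1 and Stx3 had one in both cultures at days 9 and 13, and Klf4 in the day 9 FLAG library alone.

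**Figure D2:**
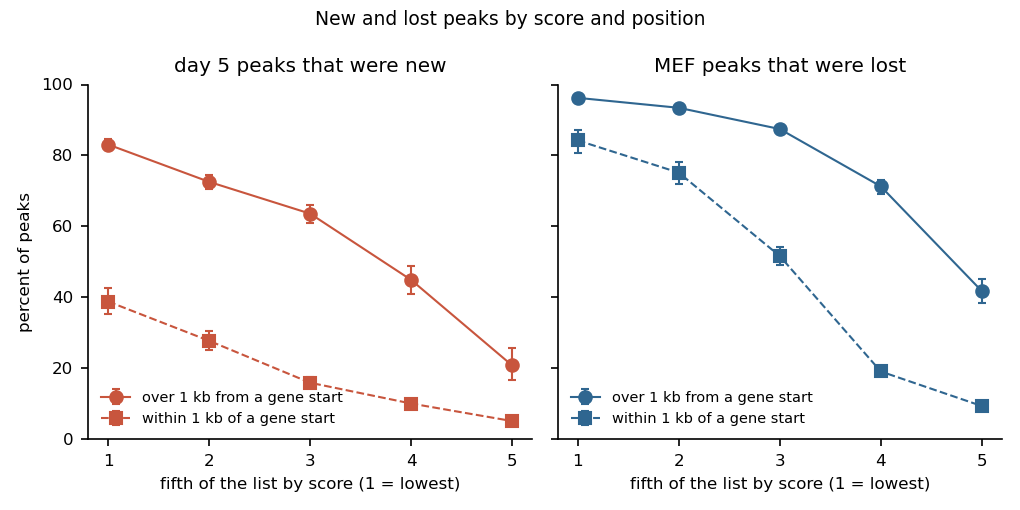
Percent of day 5 peaks that were new (left) and of MEF peaks that were lost (right) in 5 equal classes of each list's score (x axis, 1 = lowest), for peaks over 1 kb from a gene start (circles) and within 1 kb (squares), with 95% Wilson intervals. In the highest class of MEF scores 41.7% of distal and 9.33% of start-site peaks were lost, and distal shares are above start-site shares in all 5 classes of both lists.

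The regions that MEFs share with ESCs were largely retained. Of MEF peaks without an overlapping ESC peak 87.4% were lost, against 20.6% of MEF peaks with one, a difference of 66.8 points (65.8 to 67.7). The gap was seen in both positions: for distal peaks the loss was 92.5% without and 47.2% with an ESC peak, and at starts it was 59.8% without and 14.5% with one. For lists of equal length, 73.3% of MEF-only and 10.9% of ESC-shared peaks were lost. New day 5 peaks were mostly not ESC peaks. An ESC peak overlapped 22.2% of new day 5 peaks (21.2 to 23.3%), 77.9% of the day 5 peaks kept from MEFs and 11.6% of the lost MEF peaks. Of the 3880 new peaks without a MEF peak within 1 kb, 13.6% overlapped an ESC peak and 25.0% had one within 1 kb.

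At gene level, 33.2% of the 21887 genes had at least 1 peak fewer and 7.86% at least 1 peak more at day 5 than in MEFs, with no peak in either library for 6567 genes. Among the 15320 genes with a peak in either library, 11.2% had more and 47.5% fewer. At least 3 peaks fewer were found for 1434 genes (6.55%) and at least 3 more for 75 (0.343%). This balance depends on list length. For lists of equal length 3388 genes had more and 3141 fewer peaks at day 5, whereas with the top 50% of each list by score 493 had more and 6142 fewer. Summed over all genes, day 5 windows held 26739 peaks, against 38345 in MEF windows, or 69.7%, and for lists of equal length 101%. The ratio was lower for genes with many MEF peaks: day 5 sums were 91.8% of the MEF sum for genes with 1 MEF peak, 63.4% for genes with 4 or 5, and 37.7% for genes with 10 or more, and a high MEF count is itself part of what is compared. Windows of neighbours overlap, so a peak may count for several genes. The lists below were chosen with earlier results of these data known, and each is set beside these values for all genes.

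With all peaks, matrix and fibroblast genes had the lowest number of day 5 peaks relative to MEFs among the 23 lists. Of 24 genes for collagens and other matrix proteins, 22 had fewer peaks at day 5, 2 had equal numbers and none had more, with a median difference of -2.5 against 0 over all genes. Their windows held 34 peaks at day 5, of which 18 were new, against 124 in MEFs, or 27.4%. A day 5 peak overlapped 16 of those 124 MEF peaks (12.9%), against 49.2% over all genes. Among lists of equal length 16 of 24 had fewer and 1 had more, and the sums were 34 at day 5 and 68 in MEFs. Ltbp1, encoding a protein that tethers latent TGF-beta to the matrix, had 4 peaks at day 5 and 16 in MEFs, but 4 in each for lists of equal length. Its start kept a peak of score 200 in both libraries, whereas the MEF peaks of score 110 and 119 inside the gene had no day 5 counterpart. Ltbp2 had 1 peak at day 5 and 11 in MEFs, Col4a2 of basement membrane collagen had 2 and 11, and Fbn1, encoding fibrillin 1 of microfibrils, had 4 and 12. The fibrillar collagen gene Col1a1 had 1 peak at day 5 and 7 in MEFs. For Fbn1 the order turned for lists of equal length, at 4 for day 5 and 3 for MEFs.

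Among 20 fibroblast identity genes, 16 had fewer, 3 equal and 1 more peaks at day 5, with 18 peaks in all at day 5 against 57 in MEFs (31.6%). Of the day 5 peaks 11 were new, and 7 of the 57 MEF peaks (12.3%) were overlapped at day 5. For lists of equal length 12 genes had fewer and 2 more, with 18 peaks at day 5 and 33 in MEFs (54.5%). Day 5 peaks were absent from the windows of the platelet-derived growth factor receptor genes Pdgfra and Pdgfrb, which had 2 and 3 peaks in MEFs. The same held for Dcn, encoding the proteoglycan decorin, with 0 peaks at day 5 and 3 in MEFs, and for Lox, with 0 and 2. For lists of equal length MEFs had 0 peaks at Dcn, 1 each at Lox and Pdgfra, and 2 at Pdgfrb. Loxl1, another lysyl oxidase gene, had 2 peaks at day 5 and 7 in MEFs. Cd44, the hyaluronan receptor gene, had 3 and 7, but for lists of equal length it had 3 at day 5 and 2 in MEFs. Nt5e, a surface nucleotidase gene, was the 1 member with more, 2 at day 5 and 1 in MEFs.

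The factors that establish mesenchymal identity followed. Of 20 mesenchymal transcription factor genes, 17 had fewer peaks at day 5, 3 equal and none more, with 25 peaks at day 5 and 76 in MEFs (32.9%), or 25 and 41 for lists of equal length. Tcf4, a basic helix-loop-helix factor gene, had 2 peaks at day 5 and 11 in MEFs, and the limb mesenchyme homeobox gene Prrx2 had 2 and 8. Foxc2, a forkhead factor gene, had 1 peak at day 5 and 7 in MEFs. The drivers of epithelial to mesenchymal transition had 2 peaks at day 5 and 3 in MEFs for Twist1, 2 and 3 for Snai1, 0 and 1 for Snai2, 1 and 3 for Zeb1, and 3 and 6 for Zeb2. In the list of RUNX, C/EBP and other somatic factors 14 of 17 had fewer and none more, against 6 fewer and 5 more for lists of equal length. Runx2, the bone lineage factor gene in that list, had 3 peaks at day 5 and 11 in MEFs. The somatic factor genes held 51 peaks at day 5 and 57 in MEFs for lists of equal length. Of 14 AP-1 genes 5 had fewer, 7 equal and 2 more peaks, with 33 peaks at day 5 against 41 in MEFs. The balance moved with the setting, at 4 fewer and 4 more for lists of equal length, 9 fewer and 1 more with the top 50% of each list, and 8 fewer and 1 more with HDAC3-YF. Fosl1 had 4 peaks at day 5 and 7 in MEFs, while Fos and Jun had equal numbers in both, 4 and 1.

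Signalling and cytoskeletal genes of the fibroblast state also held fewer peaks with all peaks counted, and the gap was smaller for lists of equal length. In the TGF-beta pathway 13 of 18 genes had fewer peaks, 4 equal and 1 more, with 42 peaks at day 5 and 93 in MEFs, or 42 and 66 for lists of equal length. The receptor-activated signal transducer Smad3 had 2 peaks at day 5 and 15 in MEFs, and 2 and 10 for lists of equal length. Its start kept a peak, of score 83.9 at day 5 and 200 in MEFs, while the MEF peaks of score 200 and 182 inside the gene were lost. Tgfbr3, encoding the co-receptor betaglycan, had 2 peaks at day 5 and 13 in MEFs. Tgif1, a repressor of SMAD targets, was the 1 member with more, 3 at day 5 and 2 in MEFs. Of 16 YAP and TEAD genes 12 had fewer and none more, led by Tead1, a DNA-binding partner of YAP, with 6 peaks at day 5 and 17 in MEFs. In peak lists of equal length 6 of the 16 had fewer and 2 more (38 peaks at day 5 and 44 in MEFs), and Tead1 had 6 at day 5 and 5 in MEFs. Of 21 actin and contractile genes 18 had fewer and 1 more, against 10 fewer and 4 more for lists of equal length (64 peaks at day 5 and 76 in MEFs). Mrtfa, the actin-sensing coactivator of SRF, had 1 peak at day 5 and 12 in MEFs. Cald1, encoding the actin-binding protein caldesmon, had 6 peaks at day 5 and 14 in MEFs, but 6 in each for lists of equal length. In the list of BMP, LIF and FGF signalling 17 of 23 had fewer and none more, against 6 fewer and 3 more for lists of equal length (24 peaks at day 5 and 30 in MEFs). The growth factor receptor gene Fgfr2 had 0 peaks at day 5 and 8 in MEFs, and the growth factor gene Fgf7 had 0 and 5. For lists of equal length MEFs had 3 peaks at Fgfr2 and 0 at Fgf7.

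**Figure D3:**
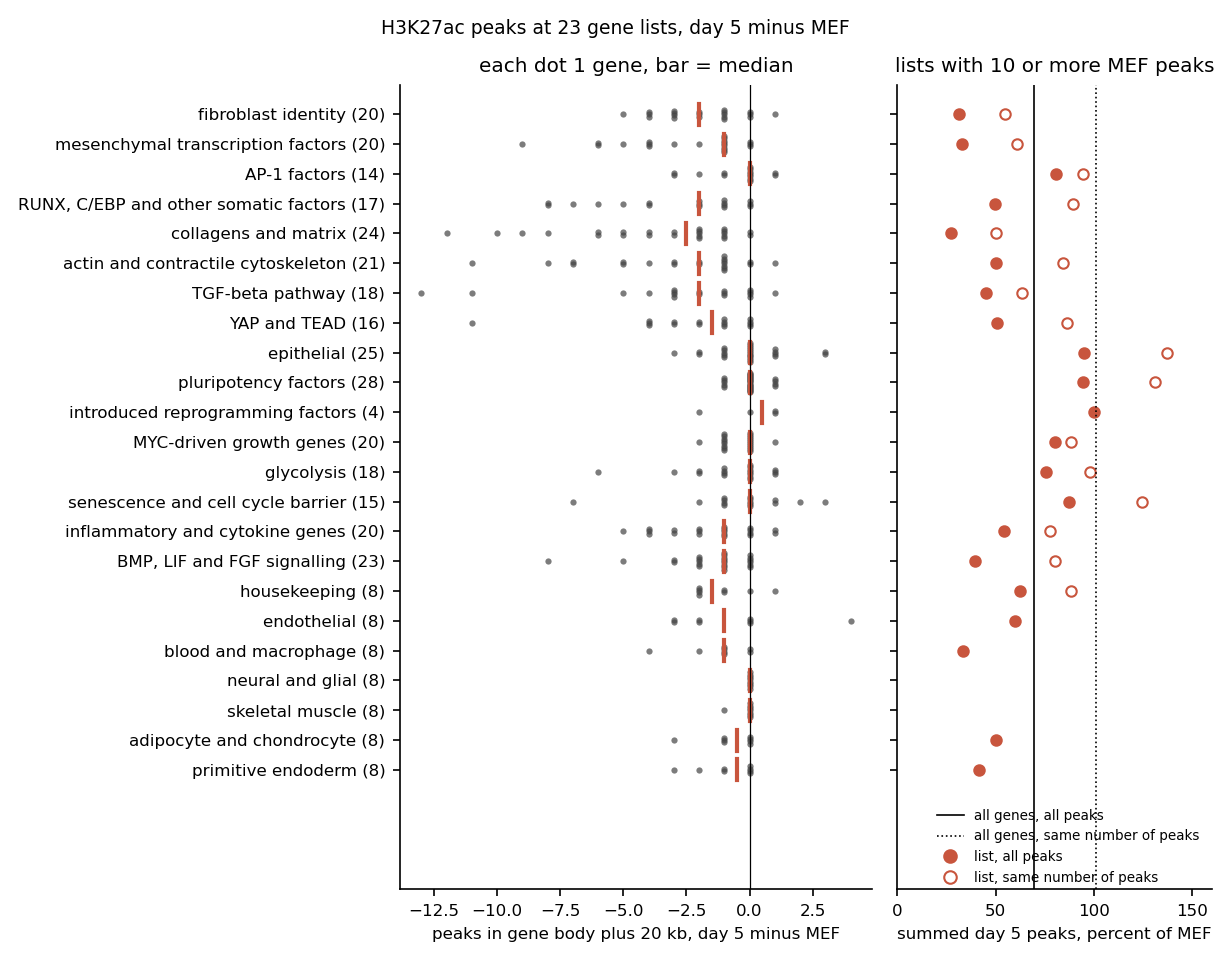
Left, day 5 minus MEF number of H3K27ac peaks in gene body plus 20 kb (x axis) for each gene of 23 lists (dots, list size in brackets), with the list median as a bar. Right, summed day 5 peaks as percent of the MEF sum with all peaks (filled) and for lists of equal length (open), beside all genes at 69.7% (solid line) and 101% (dotted line). Collagens and matrix are lowest at 27.4% and 50.0%, and epithelial genes are at 94.9% and 137%.

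Epithelial genes gave no stable direction. Of 25 genes 6 had more peaks at day 5, 11 equal and 8 fewer, with 37 peaks at day 5, 39 in MEFs and 65 in ESCs. In lists of equal length 9 had more and 4 fewer, with 37 peaks at day 5 and 27 in MEFs (137%), against 101% over all genes. With the top 50% of each list 1 had more and 7 fewer, with 14 peaks at day 5 and 22 in MEFs (63.6%), against 65.0% over all genes. Krt8, encoding a simple epithelial keratin, had 5 peaks at day 5 and 2 in MEFs, but with the top 50% of each list by score the difference was -1. Grhl2, a transcription factor gene of epithelial identity, had 3 peaks at day 5 and 0 in MEFs. The desmosome genes Dsp and Pkp1 had 3 peaks each at day 5 and 2 each in MEFs. Cdh1, encoding E-cadherin, had 2 peaks in both libraries, and Epcam, an epithelial adhesion gene, had 0 in both. Members with fewer included Marveld3, a tight junction gene, with 0 peaks at day 5 and 3 in MEFs.

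Pluripotency genes were still almost bare at day 5. The 28 genes held 17 peaks at day 5 and 18 in MEFs, against 136 in ESCs. Of them 4 had more, 19 equal and 5 fewer, and 15 had no peak in either day 5 cells or MEFs. For lists of equal length 7 had more and 3 fewer, and with the top 50% none had more and 7 fewer. Those 15 include Esrrb, with 11 peaks in ESCs, and Zfp42, with 5. Nanog, the homeobox factor gene of the ground state, had 1 peak at day 5, 1 in MEFs and 5 in ESCs. Dppa3 and Gdf3 had 1 peak more each at day 5 and lie next to each other, so their windows share peaks, and with the top 50% of each list by score the difference for Gdf3 was -1. The DNA demethylase genes Tet1 and Tet2 had 3 and 2 peaks at day 5, against 4 and 1 in MEFs, and for Tet1 the difference was 1 for lists of equal length.

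Genes of the introduced factors were used as a check. Klf4 lost the MEF peak of score 200 centred 226 bases before its start, along with both other MEF peaks of its window. At day 5 it had a single peak of score 200 centred 1991 bases inside the gene, a position without a MEF or ESC peak within 1 kb. Myc had 2 peaks at day 5 and 1 in MEFs, and both day 5 peaks, of score 200 and 107, lay in the gene body and did not overlap the MEF peak. Sox2 had 1 peak at day 5 and 1 in MEFs, which did not overlap. Pou5f1 had 7 peaks at day 5 and 6 in MEFs, while with HDAC3-YF the difference from MEFs was -1. Introduced copies of these genes can give peaks inside the gene bodies, and their part in these peaks was not tested. With HDAC3-YF at day 5 Klf4 again had the internal peak alone.

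Growth, metabolic and stress genes were counted next. Over all genes with a peak in either library, 47.5% had fewer and 11.2% more. Of 20 MYC-driven growth genes 9 had fewer, 10 equal and 1 more, with 37 peaks at day 5 and 46 in MEFs, or 37 and 42 for lists of equal length. Of 18 glycolysis genes 8 had fewer and 3 more, and Hk2, encoding hexokinase 2, had 1 peak at day 5 and 7 in MEFs. At equal list length 5 glycolysis genes had fewer and 4 more, with 43 peaks at day 5 and 44 in MEFs. Hk2 then had 1 and 2. The list of senescence and cell cycle barriers had 6 fewer, 5 equal and 4 more of 15, but 3 fewer and 7 more for lists of equal length, with 41 peaks at day 5 and 33 in MEFs. Rb1, the retinoblastoma tumour suppressor gene, had 6 peaks at day 5 and 3 in MEFs, and Btg2, an antiproliferative gene, had 6 and 4. By contrast Igfbp7, a secreted growth factor binding protein gene, had 1 and 8. Of 20 inflammatory and cytokine genes 14 had fewer and 2 more, against 9 fewer and 4 more for lists of equal length. The interleukin receptor gene Il1rl1 had 0 peaks at day 5 and 5 in MEFs, the adhesion gene Vcam1 had 0 and 4, and the chemokine gene Ccl2 had 2 and 6. Of 8 housekeeping genes 6 had fewer and 1 more, with 15 peaks at day 5 and 24 in MEFs, or 62.5%, against 69.7% over all genes. At equal list length 2 had fewer and 1 more, with 15 peaks at day 5 and 17 in MEFs.

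Markers of other cell types also had peaks in MEFs. Endothelial genes held 9 peaks at day 5 and 15 in MEFs, and blood and macrophage genes 5 and 15. The direction was not held for lists of equal length, with 9 at day 5 and 6 in MEFs for endothelial genes, and 5 in each for blood and macrophage and for primitive endoderm genes. Of the 8 genes in each list, 4 and 3 had any peak at day 5, against 6 and 6 in MEFs. The vascular receptor gene Kdr had 0 peaks at day 5 and 3 in MEFs, whereas Tek of the same list had 4 and 0. For lists of equal length Kdr had 0 in both, and MEFs also had none at Tie1. In the blood list Spi1, the myeloid factor gene, had 1 and 5, but 1 in each for lists of equal length. MEFs then had no peak at Ptprc, Csf1r or Tal1. Muscle and neural genes were near 0 in both, at 1 and 4 peaks at day 5 and 2 and 4 in MEFs. Adipocyte and chondrocyte genes held 6 peaks at day 5 and 12 in MEFs, as did primitive endoderm genes with 5 and 12. Whether fewer non-fibroblast cells contribute to the lower day 5 counts was not tested.

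Across all genes the 12 with the largest deficit at day 5 were led by Lpp. This gene, encoding a focal adhesion protein, had 2 peaks at day 5 and 26 in MEFs. Dnm3, a dynamin gene, had 9 and 32, and Stard13 had 5 and 23. Adam12, a metalloprotease gene, had 2 and 18, and Apbb2 had 1 and 17. The remaining 7 were Atxn1, Glis3, Pakap, Tns1, Babam2, Rbms3 and Aopep, with differences from -15 to -13. In lists of equal length Lpp had 2 peaks at day 5 and 14 in MEFs, and Dnm3 had 9 and 13. Stard13 then had 5 and 11, Adam12 had 2 and 6, and Apbb2 had 1 and 4. Aopep had no deficit there, with 12 in each. The genes emptied of peaks were headed by Tiam2, an activator of Rac GTPase, with 0 peaks at day 5 and 13 in MEFs, of which its start peak and another had score 200. Glis1, a zinc finger factor gene, had 0 peaks at day 5 and 10 in MEFs. The other 8 were Enox1, Fam169b, Atp8b4, Dclk1, Dkk3, Fgfr2, Pde10a and Piezo2, with 8 or 9 MEF peaks each. At equal list length MEFs had 7 peaks each at Tiam2 and Glis1. The other 8 then had from 1 MEF peak, at Enox1 and Dkk3, to 6 at Atp8b4. Genes with MEF peaks and none at day 5 numbered 1861 (8.50%).

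With all peaks counted, gains per gene were smaller. Zbtb20, a zinc finger repressor gene, was the exception with 20 peaks at day 5 and 6 in MEFs, and with 18 in the HDAC3-YF library. Its start had a peak in both libraries, and 16 new peaks lay inside or beyond the gene, 10 of them between 315797 and 465697 bases from the start. Shroom3, an organiser of apical actin in epithelia, had 11 peaks at day 5 and 4 in MEFs, including new peaks of score 67.0 and 71.5. Cdh13, an atypical cadherin gene, had 12 and 6, and Zfhx3, a homeobox zinc finger gene, had 18 and 13. Klf12 had 6 and 1. These gains were as large or larger at equal list length. Zbtb20 then had 20 peaks at day 5 and 3 in MEFs, and Shroom3 had 11 and 0. Cdh13 had 12 and 3, Zfhx3 had 18 and 9, and Klf12 had 6 and 1. With the top 50% of each list by score the order turned for Zfhx3, at a difference of -3, and for Klf12, at -1. The others of the 12 with the largest surplus were Dym, Fam53b, Cfap61, Slc22a23, Aldh3a1, Adamtsl1 and Lama4, with differences of 4 or 5. Genes without a MEF peak and at least 1 at day 5 numbered 307 (1.40%). Aldh3a1, an aldehyde dehydrogenase gene known from corneal and other epithelia, led them with 5 peaks, followed by the retinol-oxidising enzyme gene Adh7 and by Tek with 4 each. Cdh20, Gad2, Grhl2, Grm4, Mal, Mapk10 and Mctp1 had 3 each. Aldh3a1 had no ESC peak, and Tek and Grhl2 had 1 each.

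**Figure D4:**
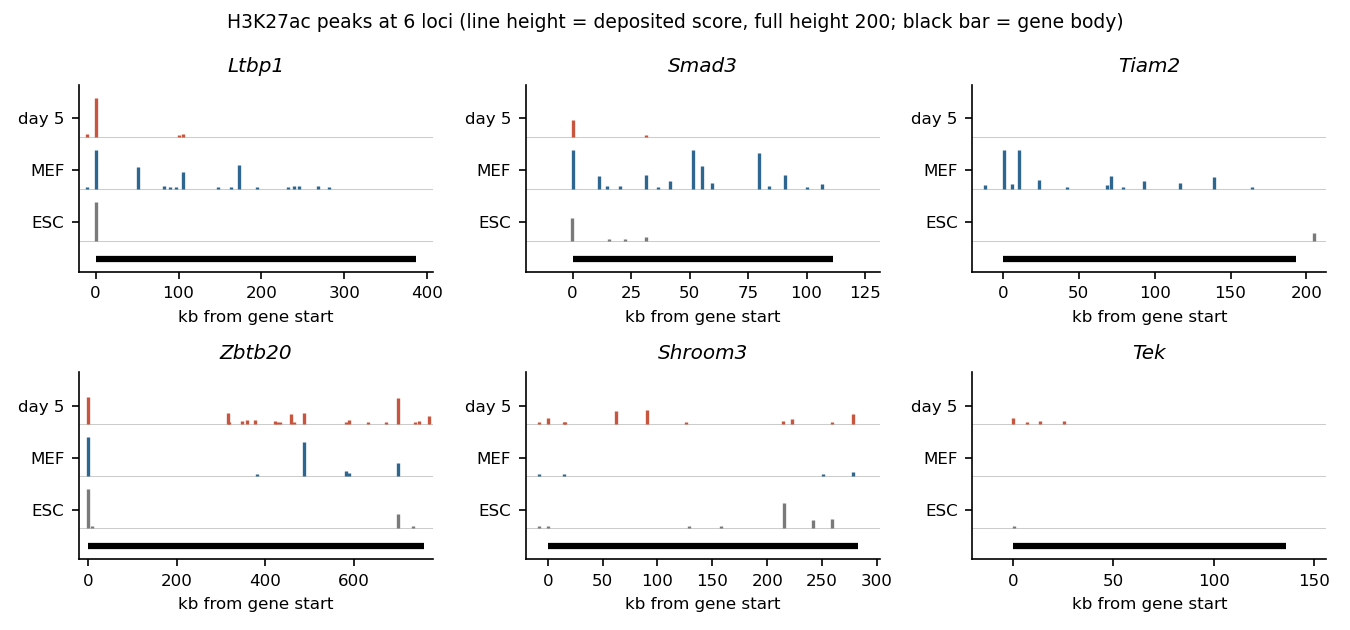
H3K27ac peaks at 6 loci by distance from the gene start in kb (x axis) in day 5, MEF and ESC libraries (rows), 1 line per peak with height scaled to the deposited score (full height 200) and the gene body as a black bar. Smad3 has 2 day 5 and 15 MEF peaks, Tiam2 has 0 and 13, Zbtb20 has 20 and 6, and Tek has 4 and 0.

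At gene starts most MEF peaks had a day 5 counterpart. Of 17492 genes with a RefSeq promoter, 7893 had a peak within 1 kb of the start in both libraries, 208 (1.19%) at day 5 only and 1286 (7.35%) in MEFs only, which is 14.0% of the starts marked in MEFs. In the matrix list 8 of 17 genes with a promoter had lost the start peak, namely Col6a1, Col6a2, Col6a3, Tnc, Fbln2, Fbln5, Bgn and Ltbp2, and 8 had kept it. The first 3 of these encode chains of collagen VI, a matrix microfibril protein. The signalling list had lost start peaks at Id2, Grem1, Fgf5, Fgf7 and Fgf10, 5 of 17, while 10 had kept one and 2 had none in either library. The TGF-beta and AP-1 lists had lost none of 11 each, but only 8 in each list had a MEF start peak to lose. Among YAP and TEAD genes Ankrd1 alone of 13 had lost its start peak. New start peaks in the lists were found at Cldn3, a tight junction gene, at Dsp and at Tek. The Cldn3 peak had a score of 8.83, against a lowest day 5 score of 6.71. With HDAC3-YF at day 5 Dsp and Tek had a start peak and Cldn3 had none. Outside the lists, and picked after the values were seen, new start peaks included the epithelial factor genes Elf3 and Grhl1, the ESC-expressed genes L1td1 and Zfp296, and Prdm1 and Myb. Elf3 had no start peak with HDAC3-YF at day 5 or with FLAG at day 9, and Prdm1 had none in any other library. Grhl1, L1td1, Zfp296 and Myb had one with HDAC3-YF at day 5. ESCs had a start peak at 59.1% of the new starts, at 56.1% of the lost starts and at 95.8% of the kept starts. The share was 9.12% for starts without a peak at day 5 or in MEFs, and 52.3% for all starts.

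The letters of these promoters were compared as a description, over 21238 distinct 300-base windows on both strands. The AP-1 letters TGANTCA were in 7.04% of new, 6.97% of lost and 3.84% of kept promoters, and in 6.99% of all. The TEAD letters GGAATG were in 15.1% of new, 14.8% of lost, 10.7% of kept and 13.6% of all promoters. The cAMP response letters TGACGTCA were in 1 of 284 new promoters (0.352%), 1.46% of lost, 3.95% of kept and 2.24% of all. The octamer ATGCAAAT was in 13 of 284 new promoters, or 4.58% (2.69 to 7.67%), against 1.27% of lost, 1.22% of kept and 1.66% of all. The MYC E-box letters CACGTG were in 7.39% of new, 9.12% of lost, 10.9% of kept and 7.84% of all promoters, and the KLF/SP letters CCGCCC in 53.9%, 62.5%, 70.8% and 46.2%. Kept promoters were also the richest in CG dinucleotides, with a median of 23, against 13.5 for new, 16 for lost and 13 for all. Several of these orders did not hold when a start was classed by a peak that overlaps the promoter window. The octamer was then in 1.54% of new promoters, below the 1.66% of all. The AP-1 letters were in 4.02% of new and 4.80% of lost, and the cAMP response letters in 3.43% of new and 1.99% of lost. The KLF/SP letters were in 70.4% of new, 70.7% of lost and 72.4% of kept promoters.

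Later libraries were read at the same positions. At the positions of lost MEF peaks the share with a peak was 12.8% at day 9 and 12.1% at day 13 in FLAG cultures, and 73.6% of lost peaks had none in the other 5 OSKM libraries. Kept MEF peaks were marked far more often, in 87.0% at day 9 and 77.7% at day 13. New day 5 peaks had an overlapping peak in 36.0% of cases at day 9 and 23.2% at day 13, and a peak within 1 kb in 57.7% and 40.6%. In the HDAC3-YF library of the same day the overlap was 42.6%, so low overlap was not limited to later days. Of new peaks 5.32% had one in all 5 other OSKM libraries. In the day 13 FLAG list 1.67% of peaks were at the score ceiling. New peaks without a MEF peak within 1 kb were marked more often in later libraries where ESCs had a peak within 1 kb: 59.8% of those 970 had a peak within 1 kb at day 9 and 43.0% at day 13, against 38.0% and 19.2% of the 2910 without an ESC peak. Of the 1286 lost gene starts 33.2% had a peak within 1 kb at day 9 and 39.0% at day 13 in FLAG cultures. Over all 17492 starts the shares were 47.0% and 46.2%. Of the 14872 lost MEF peaks without a day 5 peak within 1 kb, 13.3% and 13.7% had a peak that near. Distances ran from the gene start for starts and from the peak centre for peaks.

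**Figure D5:**
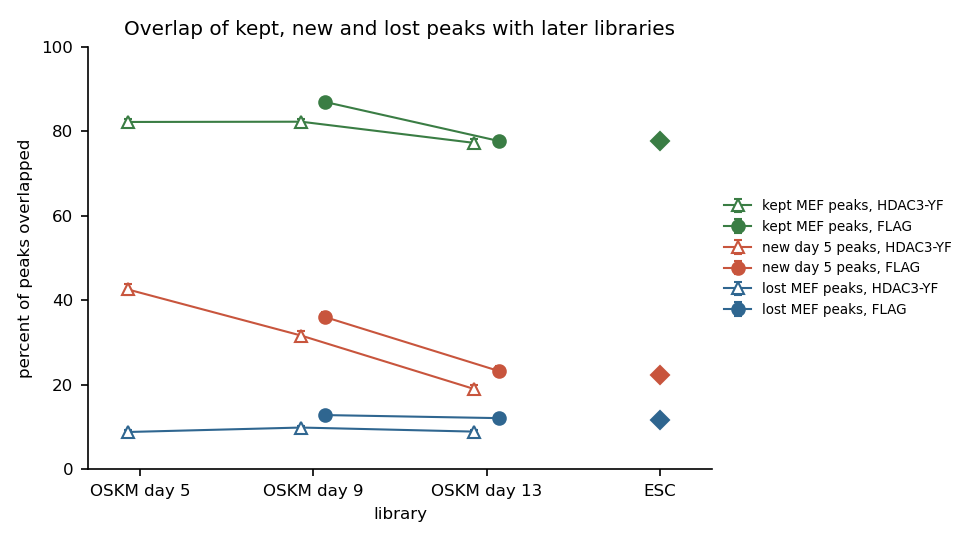
Percent of kept MEF peaks (green), new day 5 peaks (red) and lost MEF peaks (blue) overlapped by a peak (y axis) in HDAC3-YF (open triangles) and FLAG (filled circles) libraries at days 5, 9 and 13 and in ESCs (diamonds), with 95% Wilson intervals. The day 5 FLAG library defined the sets and is left out. New peaks are overlapped in 36.0% at day 9 and 23.2% at day 13 in FLAG cultures, and lost peaks in 12.8% and 12.1%.

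The day 5 culture with HDAC3-YF had its own comparison with the same MEF library, so the 2 comparisons share their MEF peaks. With HDAC3-YF 64.4% of MEF peaks were lost and 44.1% of day 5 peaks were new, against 63.4% and 37.8% with FLAG. At gene level 2169 genes (9.91%) had more and 7128 (32.6%) fewer peaks with HDAC3-YF. Matrix genes held 37 peaks with HDAC3-YF and 34 with FLAG, against 124 in MEFs, and epithelial genes 35 and 37, against 39 in MEFs. At the positions lost in the FLAG culture 8.79% had a peak with HDAC3-YF, and at the new positions 42.6% did, while 82.2% of kept MEF peaks were marked. Prrx1, a mesenchymal homeobox gene, had 5 peaks with HDAC3-YF, 2 with FLAG and 7 in MEFs, although for lists of equal length the FLAG difference from MEFs was 1. Lpp had 8 with HDAC3-YF, 2 with FLAG and 26 in MEFs. Other genes went the other way. Tgfbr3 had 0 with HDAC3-YF, 2 with FLAG and 13 in MEFs, and Rbms3 had 0, 2 and 16. These genes were picked after the values were seen.

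Binding of the co-repressors NCoR and SMRT was mapped at day 9, later than the change described here. Their sites overlapped 3.95% of new day 5 peaks, 1.74% of lost MEF peaks and 26.7% of kept MEF peaks. The order was the same at gene starts, where the shares were 14.4% for new, 8.03% for lost and 31.3% for kept peaks. Away from starts the shares were 1.14% for new, 0.523% for lost and 9.02% for kept peaks.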

How the data were processed

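H3K27ac ChIP-seq used the same antibody in all 8 libraries, 1 per group, among 13 samples in all. Each deposited list gives 200 bp intervals with a score that the authors made; its scale is not stated. Bowtie2 2.2.0 and MACS 1.4 and the build mm10 are named in the submitters' processing notes; their settings, the read depth and the use of input are not given in the sources used here.

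Peaks were compared by overlap of at least 1 bp. Peaks that overlapped each RefSeq gene body plus 20 kb were counted. Distances ran from peak centres to the starts of the RefSeq promoter table (GRCm38.p6), which covers 17492 genes. For the other 4395 both annotated ends were used. Motifs were searched in promoters alone, since peak sequences were not used here. With 1 library per group nothing was tested; intervals cover counting error over peaks only. The counting code was tested on simulated lists. Python 3.11.15, numpy 2.4.6, pandas 2.3.3, scipy 1.17.1 and matplotlib 3.10.9 were used.

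Members, lists and rules were chosen with earlier results of these data known. Named genes were up to 5 per list and direction with the largest difference, the 12 largest genome-wide in each direction, and the 10 with most peaks among genes at 0 in the other library. Further list members of known role were named after their values were seen, and 1 list member is not reported here by name. Alternatives were a 50% overlap, centres within 1 kb, merging within 1 kb, the top 50% by score, the same number of peaks, flanks of 5 kb, starts within 2.5 kb and the day 5 HDAC3-YF library.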

Additional observations from a re-analysis of the deposited data

How the results depend on the processing

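Each group is 1 library and read depth is unknown, so list length limits the counts. No paired analysis was possible because each group is 1 library. Leaving out a library was not run for the same reason. The MEF-only minus ESC-shared and distal minus start-site differences stayed above 0 under every setting run. The day 5 minus MEF order of the share of peaks at starts turned for the same number of peaks, at 57.3% and 58.5%. The causes of the moves below were not tested.

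With an overlap of at least 50%, centres within 1 kb, the top 50% by score, the same number of peaks and the day 5 HDAC3-YF library, in this order, the lost share was 72.8, 55.9, 51.5, 42.9 and 64.4%, and the new share 53.8, 24.8, 17.6, 42.9 and 44.1%. The loss of MEF-only minus ESC-shared peaks was 53.4, 69.9, 61.1, 62.4 and 63.4 points, and that of distal minus start-site peaks 48.4, 64.4, 52.5, 57.7 and 57.6 points. The distal minus start-site difference was 59.8 with starts taken within 2.5 kb and 57.3 with both ends of every gene, a setting chosen after seeing the data. The share of new peaks with an ESC peak was 21.1, 25.0, 37.3, 17.6 and 18.5%. Lost peaks also absent with HDAC3-YF, 91.2% as reported, came to 89.9, 91.9, 88.6 and 85.6% under the first 4 settings. Genes with fewer peaks numbered 3141 with the same number of peaks. Genes with more numbered 493 with the top 50%, 3388 with the same number and 5353 when at least 1 new peak sufficed. Lists with a median below 0 numbered 14 of 23, and 4 with the same number of peaks. AP-1 letters in lost minus kept promoters differed by 3.13 points, and by 1.61 with peaks overlapping the promoter.

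Directions turned for these genes. With the top 50%, the day 5 minus MEF difference was -3 for Zfhx3, -2 for Mafk, Tpi1 and Gadd45b, -1 for Klf12, Atf3, Krt8, Ap1m2, Gdf3, Nop16, Gpi1, Pkm and Cdkn1a, 1 for Socs3 and 2 for Maff. With the same number of peaks it was 1 for Cd44, Prrx1, Nfib, Fbn1, Tead1, Spint2, Tet1, Cdkn2a and Csf1r and 2 for Maff and Runx1. With HDAC3-YF it was -1 for Ap1m2 and Pou5f1, and the median of the introduced factors was -0.5.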

Other observations

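By chromosome, the X stood outside the range of the autosomes in both directions. Of its day 5 peaks 25.1% were new, against 33.2 to 43.9% over the autosomes, and of its 500 MEF peaks 51.6% were lost, against 59.0 to 68.0% over the autosomes. The sex of the cultures was not used here, and this contrast was seen after the values were tabulated.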
